A study of Mus musculus with 8 samples.

Results

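The 8 genes described here write, copy or remove methyl groups on DNA, and they were measured in whole testis of Ctcfl mutant and wildtype mice at postnatal day 23. They are Dnmt1, Dnmt3a, Dnmt3b, Dnmt3l, Uhrf1, Tet1, Tet2 and Tet3, chosen by name and not by their values. All probe sets whose gene symbol was one of these names were taken, which gave 18 of the 45101 probe sets on the array, for 8 of 20722 named genes. Of these, 17 carried the name of 1 member alone. Tet3 had its probe set under a joint name with B430006D22Rik, an older name of the same gene in the RefSeq gene table, and that probe set was kept as Tet3.

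Total testis RNA was hybridised to Affymetrix Mouse430_2 arrays, with 1 array per sample. Replicates 1, 2, 4, 6 and 7 are labelled wildtype, and replicates 3, 5 and 8 are Ctcfl mutants. CTCFL is a germ cell paralog of the zinc finger protein CTCF. In the study's text the mutants are Ctcfl del/del mice, in which exons 1 to 8 were deleted by crossing to Cre-expressing mice and a GFP coding sequence remains at the locus. That text calls the control animals heterozygous Ctcfl del/+ littermates, and the name in the sample labels, wildtype, is used throughout. Both groups share the age, the tissue and a C57/Bl6 background. In the study this age comes before the mutant testis degenerates. The targeted gene, Ctcfl, was not analysed here and so gave no check of the labels.

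Methylation of cytosine in CpG dinucleotides is set in the male germ line before and shortly after birth and is then copied at each cell division. DNMT3A and DNMT3B add methyl groups to unmethylated DNA, DNMT3L is a cofactor without enzymatic activity that stimulates them in germ cells, and UHRF1 brings DNMT1 to newly replicated DNA so that the pattern is copied. The TET proteins oxidise methylcytosine, the first step of active demethylation.

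The values are log2 levels per probe set, normalised between arrays by the authors. The median level of each array lay between 6.40 and 6.45. Levels of different probe sets depend on their probes and are not compared with each other. Differences are mutant minus wildtype on the log2 scale, estimated with limma over all probe sets and given with a standard error (SE). Group levels are means ± SD. In whole testis, fewer cells of a type and less RNA per cell cannot be told apart. The tissue label was borne out by marker levels. Sycp3, a protein of the meiotic chromosome axis, lay between 12.39 and 12.77 on the 8 arrays, and Sox9 of Sertoli cells between 7.56 and 8.02. On the first principal component, wildtype replicate 7 and mutant replicate 8 scored 40.2 and 38.2, far from the other arrays at -24.8 to -3.10. Their mean levels of 8 spermatid genes were 11.5 and 11.0, against 8.65 to 9.47 on the others. Counts of the member probe sets and the differences of some of them are also given without this pair. Differences of the list and marker genes are given on all 8 arrays only.

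No probe set of the 8 genes passed the test between the genotypes. With limma, 0 of the 18 reached an adjusted p under 0.05, beside 0% of all probe sets, and the adjusted p was 1.0 for each of the 18. At an unadjusted p under 0.05 there were 0 of 18, against 3.47% of all probe sets. Groups that did not overlap were found for 0 of 18, against 2.70% of all. By sign, 9 probe sets were higher and 9 lower in mutant testis, with differences from -0.11 to 0.18. Their median was 0.0057, beside 0.0032 over all probe sets. The precision can be read from the 95% intervals. For 17 of 18 probe sets the interval lay within a change of 1.5-fold in either direction, that is 0.58 on the log2 scale, a yardstick chosen after the values were seen. The share over all probe sets was 95.9%. The exception was Dnmt3l. An exact two-sided permutation test of the 8 arrays gave p from 0.143 to 1 over the 18 probe sets, where the smallest it can give is 0.0357.

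**Figure D1:**
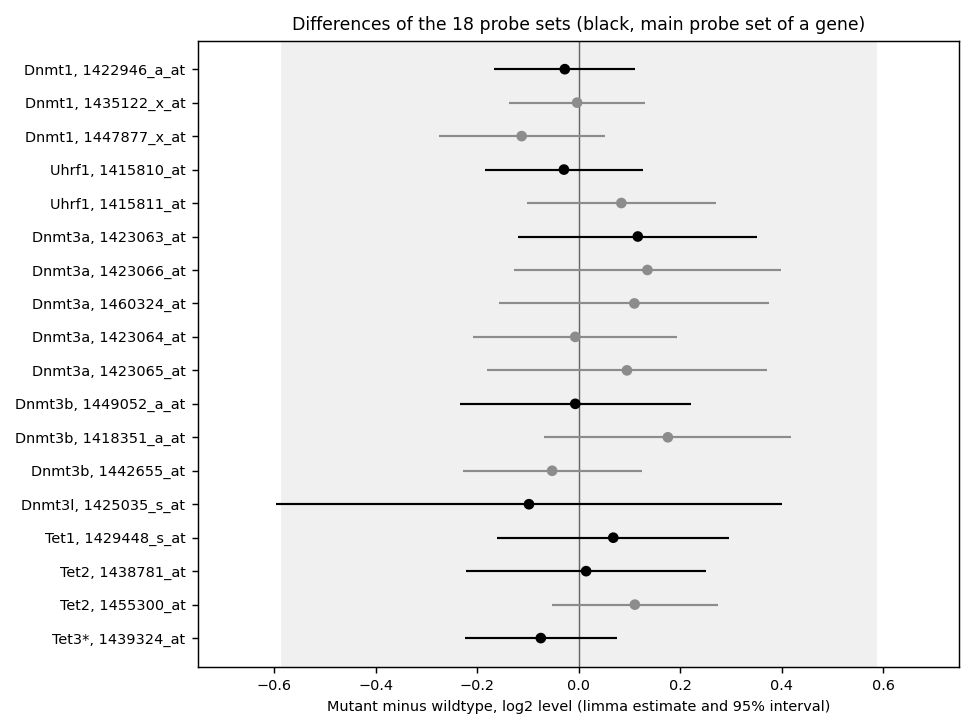
Difference between mutant and wildtype testis (horizontal axis, log2 level) for each of the 18 probe sets, as the limma estimate with its 95% interval. Black marks the main probe set of a gene, gray its other probe sets, the shaded band a change of 1.5-fold in either direction and the asterisk the jointly named Tet3 probe set. Every interval crosses 0, and that of Dnmt3l, from -0.60 to 0.40, is the widest and the one that leaves the band.

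The genes that copy methylation were described first. Dnmt1, the maintenance methyltransferase, had 3 probe sets. On its main probe set, 1422946_a_at, the wildtype levels were 9.61, 9.46, 9.52, 9.47 and 9.48, and the mutant levels were 9.49, 9.50 and 9.45. The highest level was that of wildtype replicate 1 and the lowest that of mutant replicate 8, and the groups overlapped. The means were 9.51 ± 0.060 (SD, n = 5) and 9.48 ± 0.023 (SD, n = 3). The difference was -0.027 (SE 0.062), with a 95% interval from -0.17 to 0.11. The second probe set, 1435122_x_at, ran from 8.98 to 9.06 in wildtype and from 8.98 to 9.08 in mutant testis, with a difference of -0.0032 (SE 0.060). The third, 1447877_x_at, had wildtype levels of 7.93, 7.81, 7.92, 7.80 and 8.002 and mutant levels of 7.74, 7.73 and 7.88. There mutant replicates 3 and 5 lay below all wildtype arrays and mutant replicate 8 among them. The difference was -0.11 (SE 0.073), the lowest of the 18, with an exact permutation p of 0.143. All 3 probe sets of Dnmt1 had a negative difference, and none passed the test. That of 1435122_x_at turned to 0.028 (SE 0.076) without wildtype replicate 7 and mutant replicate 8.

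Uhrf1, the partner that recognises hemimethylated DNA, had the narrowest mutant group. Its main probe set, 1415810_at, had wildtype levels of 11.00, 10.84, 10.81, 10.76 and 10.80 and mutant levels of 10.82, 10.80 and 10.82. All 3 mutant arrays lay within the wildtype range, and wildtype replicate 1 was the highest. The means were 10.84 ± 0.091 (SD, n = 5) and 10.81 ± 0.014 (SD, n = 3), a difference of -0.029 (SE 0.070). The other probe set, 1415811_at, had wildtype levels of 8.91, 8.80, 8.68, 8.77 and 8.62 and mutant levels of 8.82, 8.95 and 8.76. Its difference had the opposite sign, 0.084 (SE 0.083). The groups overlapped on both probe sets, so no direction is given for Uhrf1.

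Dnmt3a, one of the methyltransferases that set new methylation, had 5 probe sets. The main one, 1423063_at, had wildtype levels of 8.48, 8.26, 8.10, 8.18 and 8.12 and mutant levels of 8.50, 8.36 and 8.17. Mutant replicate 3 and wildtype replicate 1 were the highest, and the groups overlapped. The means were 8.23 ± 0.15 (SD, n = 5) and 8.35 ± 0.17 (SD, n = 3). The difference was 0.12 (SE 0.11), with a 95% interval from -0.12 to 0.35. The probe sets 1423066_at, 1460324_at and 1423065_at differed by 0.14, 0.11 and 0.095, with SE of 0.12 each. The fifth, 1423064_at, differed by -0.0068 (SE 0.090). Thus 4 of 5 probe sets were higher in mutant testis, and exact permutation gave p from 0.357 to 0.929 over the 5. They measure 1 gene on the same arrays and are not separate replicates. Single mutant arrays moved these values. Without mutant replicate 3, 1423063_at differed by 0.038 and 1460324_at by -0.0073, and without mutant replicate 5, 1423065_at differed by -0.047. Without mutant replicate 8 the 3 differences were 0.20, 0.26 and 0.21.

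Dnmt3b, the second of these methyltransferases, had 3 probe sets. On the main one, 1449052_a_at, the wildtype levels were 8.10, 8.30, 7.97, 8.01 and 7.99, and the mutant levels were 8.08, 8.23 and 7.89. Wildtype replicate 2 was the highest and mutant replicate 8 the lowest. The group means lay close together, with a difference of -0.0068 (SE 0.10) and a 95% interval from -0.23 to 0.22. The probe set 1418351_a_at had the highest difference of the 18. Its wildtype levels were 7.53, 7.53, 7.46, 7.63 and 7.22, and its mutant levels were 7.67, 7.83 and 7.46. Mutant replicates 3 and 5 lay above all wildtype arrays, and mutant replicate 8 lay among them. The difference was 0.18 (SE 0.11), with a 95% interval from -0.068 to 0.42 and an exact permutation p of 0.250. The third probe set, 1442655_at, lay below the array median on all arrays, between 4.43 and 4.72, and differed by -0.052 (SE 0.079).

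**Figure D2:**
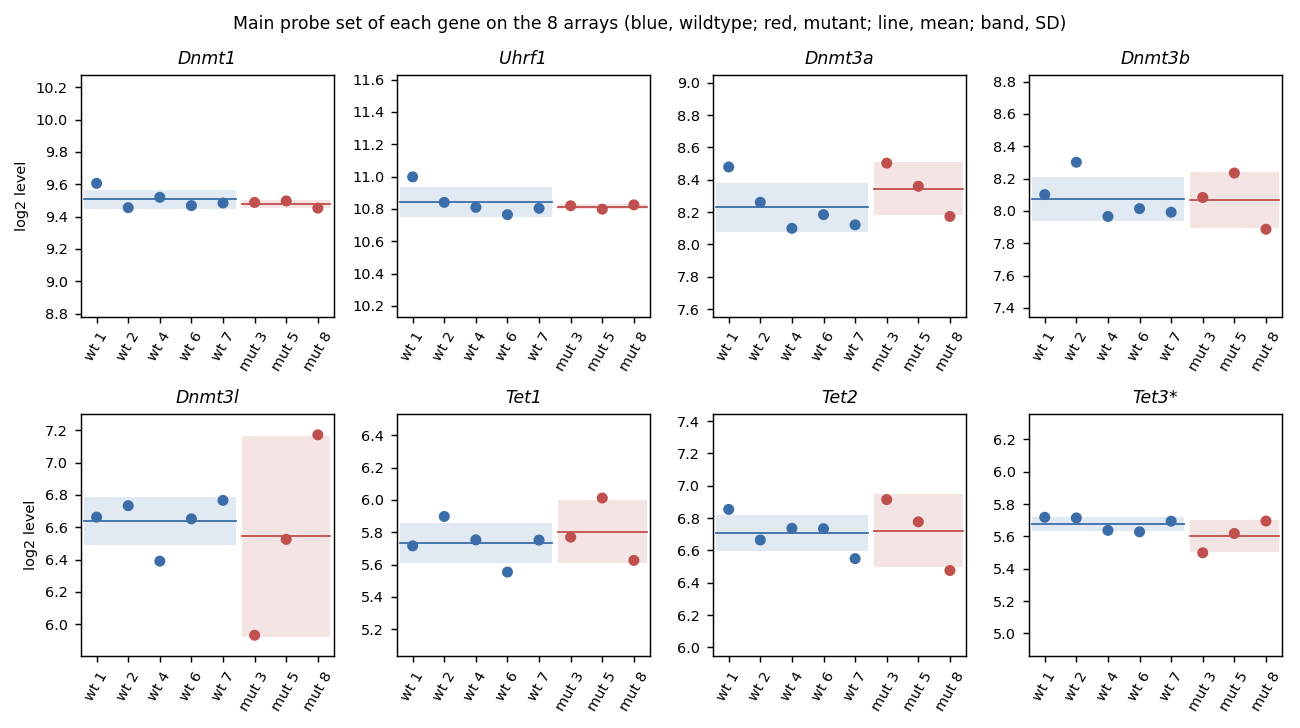
Log2 level (vertical axes, each spanning the same width but at its own height) of the main probe set of each gene on the 8 arrays (horizontal axes, wt for wildtype and mut for mutant, by replicate number). Lines and bands are group means and SD, and the asterisk marks the jointly named Tet3 probe set. The mutant points of Dnmt3l run from 5.93 to 7.17, while its wildtype points lie between 6.39 and 6.77.

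Dnmt3l, the germ cell cofactor, spread more than any other member. It had 1 probe set, 1425035_s_at, with wildtype levels of 6.66, 6.73, 6.39, 6.65 and 6.77. The mutant levels were 5.93 on replicate 3, 6.53 on replicate 5 and 7.17 on replicate 8. Replicate 3 was thus below and replicate 8 above all 5 wildtype arrays, and replicate 5 lay within their range. The means were 6.64 ± 0.15 (SD, n = 5) and 6.54 ± 0.62 (SD, n = 3). The difference was -0.098 (SE 0.22), a fold of 0.934 with a 95% interval from 0.661 to 1.32. The limma adjusted p was 1.0, and the exact permutation test gave p = 0.679. The sign rested on single mutant arrays, since the difference was -0.41 (SE 0.16) without replicate 8 and 0.21 (SE 0.17) without replicate 3. The SD pooled over both groups was 0.38, against a median of 0.14 for the 18 probe sets and of 0.13 over all, and 3.06% of all probe sets had a higher one. The _s_at suffix marks a probe set that may also match related transcripts.

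Windows of 300 bases around annotated starts, 250 before and 50 after, are given in RefSeq (GRCm38.p6) for all 8 genes. The first of the 3 Dnmt3l windows is printed because this gene varied most, and that of Dnmt3b, the gene with the highest difference on a single probe set, for contrast. Both are on the + strand, at chr10:78042037-78042336 and chr2:153649199-153649498. Capitals mark CG, the dinucleotide whose cytosine is methylated.
Dnmt3l: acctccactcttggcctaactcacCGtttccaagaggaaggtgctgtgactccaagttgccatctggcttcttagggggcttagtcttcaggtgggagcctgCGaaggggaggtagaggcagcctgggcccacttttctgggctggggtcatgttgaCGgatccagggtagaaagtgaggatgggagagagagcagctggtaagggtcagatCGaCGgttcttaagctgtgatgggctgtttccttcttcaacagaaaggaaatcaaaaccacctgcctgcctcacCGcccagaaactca
Dnmt3b: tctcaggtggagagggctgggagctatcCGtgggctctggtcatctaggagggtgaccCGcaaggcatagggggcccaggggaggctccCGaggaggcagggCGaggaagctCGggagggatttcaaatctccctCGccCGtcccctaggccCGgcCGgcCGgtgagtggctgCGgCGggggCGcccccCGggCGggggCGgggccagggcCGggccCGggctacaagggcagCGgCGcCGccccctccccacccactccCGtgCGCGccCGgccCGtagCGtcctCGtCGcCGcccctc
The Dnmt3l window held 6 CG and its other 2 windows held 4 and 3, while that of Dnmt3b held 30. The median over 32851 windows was 7, with quartiles of 3 and 20. Tet2 held the most of any member, 57, and 11 of the 15 member windows lay above the median. These counts describe the reference sequence, and no methylation was measured here.

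The genes whose levels followed Dnmt3l most closely over the 8 arrays were 1700007K13Rik, Zdhhc11 and Smco4. Closeness was the root mean square difference between levels centred on their own mean, which was 0.093, 0.11 and 0.12. All 3 had their lowest level on mutant replicate 3 and their highest on mutant replicate 8. For 1700007K13Rik these were 8.54 and 9.62, and the wildtype levels ran from 9.10 to 9.41. The mutant replicates also differed in cell markers. The mean level of 5 Leydig cell genes was 9.46 on replicate 3, 8.96 on replicate 5 and 8.91 on replicate 8. The 8 spermatid genes had means of 8.65, 8.85 and 11.0 in the same order. Wildtype replicate 7, with the highest spermatid mean at 11.5, had the highest wildtype level of Dnmt3l, 6.77, followed by 6.73 on wildtype replicate 2. For Dnmt3l and the 3 genes alike, mutant replicate 8 was the highest and wildtype replicate 7 the second highest of the 8 arrays. This pair was also highest for the spermatid mean. The 3 genes were picked for closeness to Dnmt3l on these same arrays, so their agreement with it follows from the choice. Mutant replicate 3 was the lowest for Dnmt3l, the 3 genes and the spermatid mean. Of the single spermatid genes, Acrv1, Odf1, Akap4 and Smcp were lowest there. Prm1, Prm2 and Tnp2 were lowest on mutant replicate 5 and Tnp1 on wildtype replicate 1. The part of these markers in the Dnmt3l levels was not tested.

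**Figure D3:**
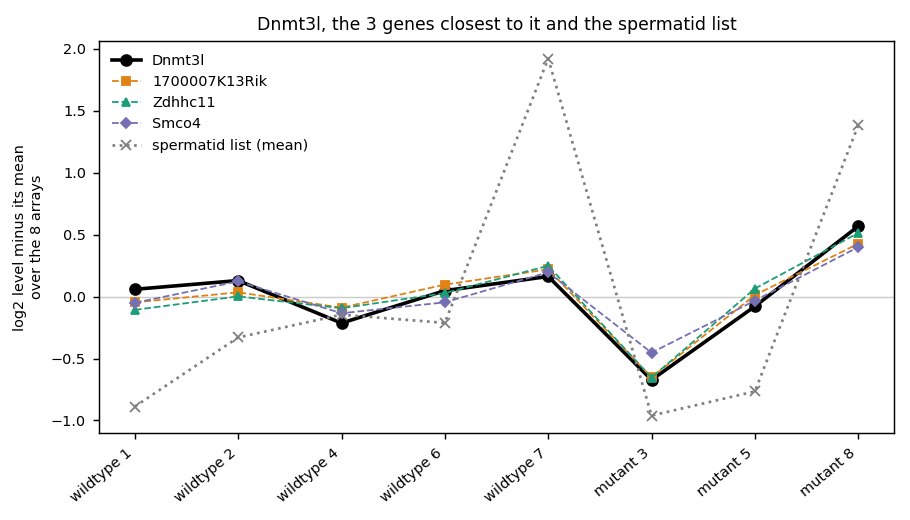
Log2 level minus its own mean over the 8 arrays (vertical axis) for Dnmt3l, the 3 genes closest to it and the mean of the 8 spermatid genes, by array (horizontal axis). Dnmt3l and the 3 genes are highest on mutant replicate 8 and then wildtype replicate 7. The spermatid mean is highest on wildtype replicate 7 and then mutant replicate 8. All 5 are lowest on mutant replicate 3, and the 3 genes were picked for closeness to Dnmt3l on these arrays.

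Of the demethylation genes, Tet1 had 1 probe set, 1429448_s_at. Its wildtype levels were 5.72, 5.90, 5.75, 5.55 and 5.75, and its mutant levels were 5.77, 6.01 and 5.63. Mutant replicate 5 was the highest of the 8 arrays and wildtype replicate 6 the lowest. The difference was 0.068 (SE 0.10), with a 95% interval from -0.16 to 0.30. Tet2, a member without the CXXC zinc finger that Tet1 and Tet3 carry, had 2 probe sets. The main one, 1438781_at, had wildtype levels of 6.85, 6.66, 6.74, 6.73 and 6.55 and mutant levels of 6.91, 6.78 and 6.48. Here mutant replicates supplied both the highest and the lowest array, and the difference was 0.015 (SE 0.11). The other, 1455300_at, had wildtype levels of 5.27, 5.10, 5.17, 5.10 and 5.17 and mutant levels of 5.33, 5.14 and 5.33. Mutant replicates 3 and 8 lay above all wildtype arrays, with a difference of 0.11 (SE 0.073) and an exact permutation p of 0.143. The Tet3 probe set, 1439324_at, had wildtype levels of 5.72, 5.71, 5.64, 5.63 and 5.69 and mutant levels of 5.50, 5.62 and 5.69. Mutant replicates 3 and 5 were the lowest of the 8, and the difference was -0.075 (SE 0.067). The probe sets of Tet1 and Tet3 and the second one of Tet2 lay below the array median on all 8 arrays.

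The pair of arrays that stood apart touched these genes unequally. On 6 of 18 probe sets wildtype replicate 7 was the lowest wildtype and mutant replicate 8 the lowest mutant array, against 15.2% of all probe sets. These were 3 probe sets of Dnmt3a and 1 each of Uhrf1, Dnmt3b and Tet2. Without the pair, 2 mutant arrays were compared with 4 wildtype arrays. At an unadjusted p under 0.05 there were then 3 of 18 member probe sets, where all probe sets gave 6.55%. Dnmt3a 1460324_at differed by 0.26 (SE 0.10) and Dnmt3b 1418351_a_at by 0.21 (SE 0.086). Dnmt3l differed by -0.38 (SE 0.16). The limma adjusted p of each was 0.761. Groups that did not overlap numbered 3 of 18, a share close to the 14.9% of all, and were those of Dnmt1 1447877_x_at, Dnmt3b 1418351_a_at and Tet3. Within the pair, mutant replicate 8 differed from wildtype replicate 7 by 0.41 for Dnmt3l, by -0.18 for Dnmt3a 1460324_at and by 0.23 for Dnmt3b 1418351_a_at, from 1 array each and so with no spread. The first 2 of these thus had opposite signs in the 6 arrays and in the pair. With the pair as a block, 1 of 18 had an unadjusted p under 0.05, beside 5.86% of all. It was Dnmt3b 1418351_a_at, at 0.22 (SE 0.071) and a limma adjusted p of 0.827. No label names this block, which rests on the expression values of the same arrays.

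Genes related to the members were described from 5 lists of 46 genes. Of these, 44 matched, with 94 probe sets, while Kdm1a and Tdg were not matched by name. With limma, 0 of 94 passed an adjusted p of 0.05, and 3 had an unadjusted p under 0.05, or 3.19% against 3.47% of all. All 3 were higher in mutant testis. Groups did not overlap for the same 3 of 94, or 3.19% against 2.70% of all. The median difference of the 94 was 0.010. The counts by sign below stand beside 51.5% higher among all probe sets. The maintenance partners, which include the replication clamp Pcna and the chromatin remodeler Hells, had 11 of 16 probe sets higher, with a median of 0.022. That list also holds Trdmt1, a methyltransferase of transfer RNA rather than a partner in copying DNA methylation. The readers, proteins such as Mbd1 and Zbtb33 that bind methylated DNA, had 11 of 19 higher and a median of 0.019. The germline imprint partners, such as Trim28 and Zfp57 that keep imprints methylated, had 10 of 11 higher and a median of 0.062. These 11 probe sets measured 7 genes on the same arrays, and their lowest unadjusted limma p was 0.166. The list of active demethylation and base excision repair had 12 of 26 higher and a median of -0.0078. The methyl donor cycle, which makes S-adenosylmethionine, had 7 of 22 higher and a median of -0.049.

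**Figure D4:**
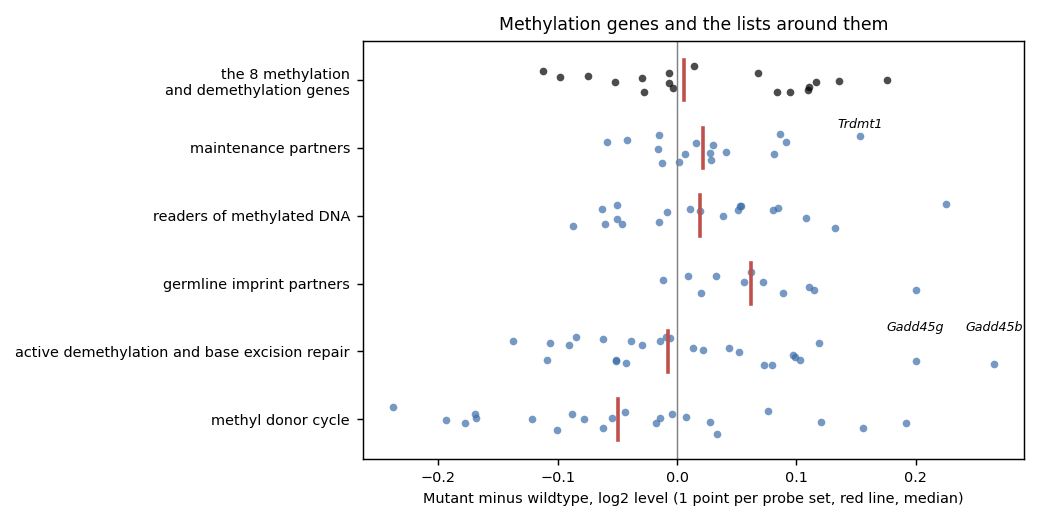
Difference between mutant and wildtype testis (horizontal axis, log2 level) of each probe set of the 8 genes and of the 5 lists (rows), with 1 point per probe set, spread vertically for legibility, and a red line at the median. The medians lie between -0.049 and 0.062, and the named points are the 3 probe sets with an unadjusted limma p under 0.05.

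The 3 probe sets belonged to Gadd45b, Gadd45g and Trdmt1. Gadd45b and Gadd45g encode stress-induced proteins that have been tied to active demethylation. Gadd45b 1450971_at had wildtype levels of 7.65, 7.68, 7.49, 7.51 and 7.60 and mutant levels of 7.89, 7.77 and 7.90. All mutant arrays lay above all wildtype arrays, and the difference was 0.27 (SE 0.071). The other 2 probe sets of Gadd45b differed by 0.073 (SE 0.064) and 0.097 (SE 0.073), and their groups overlapped. Gadd45g 1453851_a_at had wildtype levels of 6.61, 6.79, 6.57, 6.59 and 6.53 and mutant levels of 6.79, 6.82 and 6.84. The mutant levels were again all higher, though the lowest, 6.792, lay next to the highest wildtype level, 6.790, and the difference was 0.20 (SE 0.073). Trdmt1, formerly called Dnmt2, encodes a methyltransferase of transfer RNA. On 1419750_at it ran from 4.63 to 4.79 in wildtype and from 4.81 to 4.95 in mutant testis, with a difference of 0.15 (SE 0.067). The levels of 1419750_at lay below the array medians. The other probe set of Trdmt1 differed by 0.028 (SE 0.082). The limma adjusted p of all 3 was 1.0.

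Cell marker lists are given beside these values because whole testis mixes many cell types. None of these genes passed the adjusted threshold, and they are counted by sign, beside 51.5% higher among all probe sets. Each gene was taken on its main probe set. Genes of a list were measured on the same arrays and are not separate replicates. Of 7 spermatogonia genes 6 were higher in mutant testis, with a median of 0.097, and of 8 Sertoli cell genes 8 were higher, with a median of 0.13. Of 7 spermatocyte genes 6 were lower, with a median of -0.15, and of 8 spermatid genes 8 were lower, with a median of -0.21. Each spermatid difference was smaller than its SE, which ran from 0.31 to 1.09. Of 5 Leydig cell genes 4 were higher, with a median of 0.14, of 5 peritubular genes 4, with a median of 0.073, and of 5 macrophage genes 4, with a median of 0.010. The peritubular gene that was lower, Acta2, had a main probe set between 4.19 and 4.48, below the array medians. Of 5 endothelial genes 1 was higher, with a median of -0.0036, and of 6 fat cell genes 3, with a median of -0.013. The Sertoli mean ran from 8.96 to 9.01 in wildtype and from 9.02 to 9.20 in mutant testis. Its highest wildtype and lowest mutant values, 9.014 and 9.020, lay next to each other. Among single probe sets, 2.70% of all had groups that did not overlap, a share that was not taken over means of genes. The spermatogonia mean ran from 8.13 to 8.34 in wildtype and from 8.31 to 8.43 in mutant testis, with overlap. The spermatid means were 8.73 to 11.5 and 8.65 to 11.0. Their part in the member values was not tested.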

How the data were processed

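The table deposited by the authors gives each probe set's log2 level on each array. According to the study's methods, the levels were background-corrected by RMA and quantile-normalised. Columns of the authors' own comparisons and 2 further tables of limma output (differences, p-values and scores) were not used. Groups came from sample titles. The levels entered limma 3.58.1 (R 4.3.3; lmFit, eBayes) as deposited, with no filter, genotype as the only term, two-sided, and Benjamini-Hochberg adjustment over 45101 probe sets. Permutation tests were exact and two-sided. The other steps ran in Python 3.11.15 (pandas 2.3.3, numpy 2.4.6, matplotlib 3.10.9, scipy 1.17.1), and the fit was tested on simulated data.

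The main probe set of a gene had a suffix other than _s_at or _x_at where one existed, then the highest mean level. Named with their results were all members and list genes at an unadjusted p under 0.05 without overlap. So were the 3 genes closest to a member's main probe set where its range reached 0.5. Other list genes are named only as examples of a list or as unmatched, and some marker genes to describe the tissue or a list. Members were taken by the symbols of the table, and other genes by its Entrez IDs through the RefSeq table (GRCm38.p6). Of 36926 probe sets carrying 1 ID, 33637 were found there. The genome build behind its annotation is not named there, so positions are given only for the promoter windows, from RefSeq. Some list genes are not reported here. Members and lists were chosen with earlier results of these data known. Nothing used here says whether the samples are separate animals, so p-values measure only the spread between these samples, which may be technical. The number of arrays limits the precision. Alternatives left out arrays, added a block for 2 arrays or changed the filter, normalisation, offset, variance model, weights, test or probe set.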

Additional observations from a re-analysis of the deposited data

Results flagged for a closer look

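In wildtype testis, 27 measures were searched for a single array lying far outside the remaining 4. Of the 18 member probe sets, 0 had one. Of the 9 cell marker lists 3 had one, each on wildtype replicate 7, which already stood apart on the first principal component. Chance alone would give about 1 in 20 measures, or 1.35 here, if the measures were independent. They share the same arrays, so the count cannot be read against that number. On wildtype replicate 7 the spermatid list averaged 11.54, against 9.47 on the closest wildtype array. The mean of the Leydig cell list was 9.26 against 8.90, and that of the fat cell list 6.27 against 5.38. On mutant replicate 8 the fat cell mean was 6.25. The 3 mutant arrays were too few to be examined in this way.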

How the results depend on the processing

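No paired analysis was possible. The study's text calls the animals littermates, but the labels name no litter, and no replicate number occurs in both groups. A litter or replicate block could therefore not be fitted. The count of 0 of all probe sets past an adjusted p of 0.05 held in each alternative but the block of the pair of arrays, which gave 1, and that was no member. At an unadjusted p under 0.05, the 1564 probe sets of all became 2956 without the pair, 2644 with the block and 707 of the 22550 probe sets above the median level, where fewer were tested. Leaving out 1 array gave 1220 to 2649, the highest without mutant replicate 8.

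Members at an unadjusted p under 0.05 numbered 3 without the pair, 1 with the block and 0 to 3 leaving out 1 array. Without mutant replicate 8 there were 3, of Dnmt3a, Dnmt3b and Dnmt3l, beside 5.87% of all probe sets, and without mutant replicate 5 there was 1, of Tet2, beside 2.71%. Members without overlap numbered 3 without the pair and 0 to 3 leaving out 1 array, with 3 again without mutant replicate 8, beside 11.5% of all, and 1 without mutant replicate 5, beside 6.64%. No member passed the adjusted threshold in any alternative run.

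The difference of Dnmt3b, -0.0068, turned to 0.034 with array weights, 0.063 without the pair, 0.017 with the block and 0.18 on 1418351_a_at, and ranged from -0.090 to 0.084 leaving out 1 array. Uhrf1 turned to 0.084 on its other probe set and ranged from -0.049 to 0.0096. Dnmt3a turned to -0.0068 on 1423064_at. Leaving out 1 array, Dnmt3l ranged from -0.41 without mutant replicate 8 to 0.21 without mutant replicate 3, Tet1 from -0.037 to 0.16 and Tet2 from -0.082 to 0.14. Dnmt1 and Tet3 kept their sign on the main probe set. The cause was not tested.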
